A study of Sus scrofa with 6 samples.

Results

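Regulators of G-protein signaling (RGS) were compared between the ventricular myocardium of sham minipigs and of minipigs with descending aortic constriction (DAC). The members were 10 genes listed by symbol, of the 13288 genes in the deposited table, and 9 of them had values: RGS2, RGS3, RGS4, RGS6, RGS12, RGS14, RGS16, RGS18 and RGS19. RGS10 was not analysed here. The animals were male Tibetan minipigs whose age is not given in the sources used here. The 3 DAC minipigs carried a suture around the descending aorta that narrowed it and loaded the left ventricle with pressure, and the 3 sham minipigs had a thoracotomy without constriction. RNA came from tissue taken at week 12, with 1 library per minipig. The sham animals are numbered 1 to 3 and the DAC animals 4 to 6, as replicates. The comparison addresses how chronic pressure overload, used in this study to model heart failure with a preserved ejection fraction, bears on the genes that limit signaling through G-protein-coupled receptors.

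An activated receptor loads the alpha subunit of a heterotrimeric G protein with GTP, and the alpha and the beta-gamma subunits then act on enzymes and ion channels. RGS proteins bind the active alpha subunit through a shared RGS domain and speed up the hydrolysis of GTP, which ends the signal. In the heart they restrain the Gq signals of alpha-1 adrenergic, angiotensin and endothelin receptors, which drive hypertrophy, and the Gi signals of muscarinic and adenosine receptors, which slow the heartbeat through potassium channels. The family is divided by protein architecture into the R4, R7, R12 and RZ subfamilies. Of the genes with values, RGS2, RGS3, RGS4, RGS16 and RGS18 belong to R4, RGS6 to R7, RGS12 and RGS14 to R12, and RGS19 to RZ.

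Values are FPKM, the fragments of a gene divided by transcript length and by the size of the library, so levels of different genes can be set side by side. A log2 fold change is the DAC mean of log2(FPKM + 1) minus the sham mean, a scale that understates the change of genes with low values. The limma test was fitted to the 11029 genes that reached 1 FPKM in 3 or more samples, and its P values were adjusted over all of them (Benjamini-Hochberg). A gene is called at an unadjusted limma P under 0.05, the threshold of the study. An exact two-sided permutation P is given beside the limma value, and with 3 minipigs against 3 it cannot be less than 0.10. The samples summed to between 281377 and 308771 FPKM, and mitochondrially encoded genes held 24.0% to 25.3% of the sum in the sham samples, 27.1% to 27.2% in DAC replicates 4 and 6 and 32.8% in DAC replicate 5. No gene of the table reached an adjusted P under 0.05, and the smallest was 0.106. The ventricular cardiomyocyte marker MYL2 was at 4149 to 5033 FPKM and MYH7 at 1781 to 1935 FPKM. Of 12 cardiomyocyte markers, 9 had values and were tested. RYR2 was called lower in the DAC group (log2 fold change -0.41, adjusted P = 0.585) and 0 were called higher, beside 5.27% and 3.25% of all genes tested. By their means 4 of the 9 were higher and 5 lower in the DAC group. The tissue was sequenced whole, so fewer cells of a type and less RNA per cell cannot be told apart.

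None of the listed RGS genes was called in either direction. Of the 9 with values, 6 passed the filter and were tested, and 0 were called lower and 0 higher, where 5.27% of all genes tested were called lower and 3.25% higher. Their log2 fold changes lay between -0.12 for RGS2 and 0.19 for RGS16. In 8 of the 9 genes the sham and DAC values overlapped. RGS6 was the exception, with all DAC samples above all sham samples, as in 6.53% of the 13288 genes of the table, while 0 of the 9 had all DAC samples below, against 8% of the table. By mean log2(FPKM + 1), 6 of the 9 were higher in DAC samples and 3 lower. Their median log2 fold change was 0.15, against -0.0049 over the table, and it was 0.065 without sham replicate 3 and also 0.065 without DAC replicate 6. Over the 6 tested genes the median was 0.082, against -0.016 over all genes tested.

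The levels in the sham group formed 4 steps. RGS2 was highest at 5.37 ± 1.10 FPKM (SD, n = 3), and its lowest sham sample lay above the highest sham sample of every other RGS gene listed above. RGS3, RGS12 and RGS19 followed at 3.45 ± 0.746, 3.11 ± 0.748 and 2.93 ± 0.609 FPKM (SD, n = 3 each), and their sham ranges overlapped. RGS16 and RGS4 were at 1.23 ± 0.467 and 1.05 ± 0.0504 FPKM, again with overlapping ranges. RGS6, RGS18 and RGS14 were under 1 FPKM in every sham sample, at means of 0.633, 0.609 and 0.527 FPKM, and their sham ranges overlapped too. The lowest sham sample of RGS16 (0.779 FPKM) was below the highest of RGS18 (0.794 FPKM), so RGS16 was not set apart from them. In the DAC group RGS2 was still highest by its mean, and RGS6 came next because of DAC replicates 4 and 6.

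**Figure D1:**
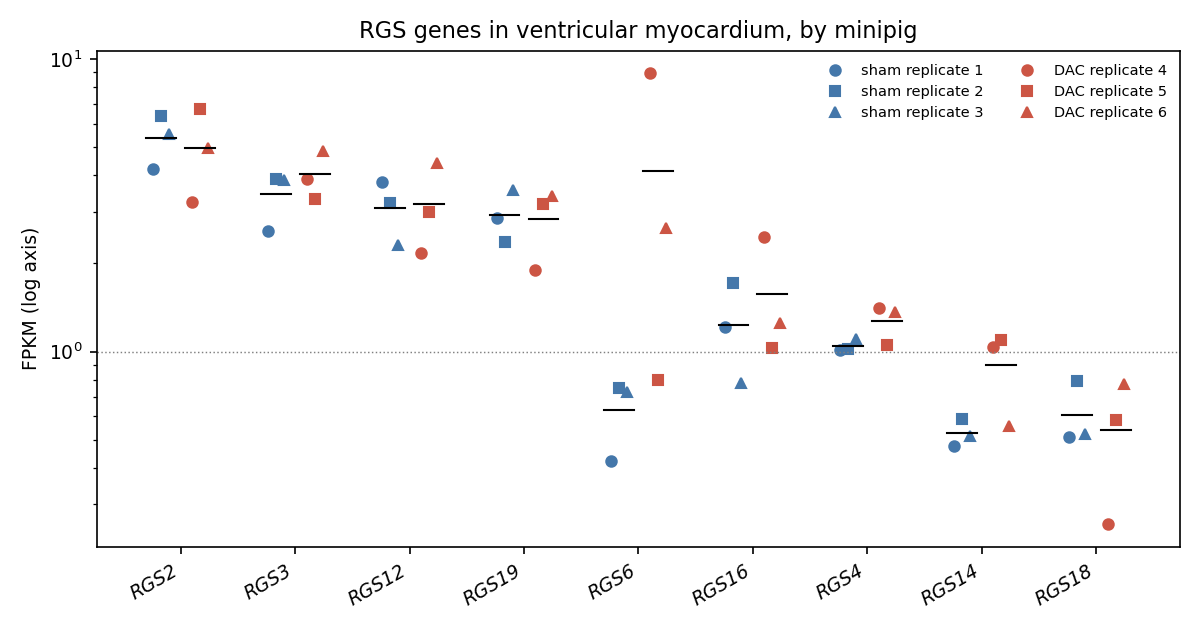
FPKM (log axis) of the 9 RGS genes in each of the 3 sham (blue) and 3 DAC (red) minipigs, ordered by their mean over the 6 samples; horizontal bars are group means and the dotted line is 1 FPKM. The groups overlap for every gene except RGS6, where DAC replicate 4 is at 8.94 FPKM and DAC replicate 5 at 0.796 FPKM, close to the highest sham sample at 0.750 FPKM.

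RGS2, the R4 member selective for Gq, limits vascular tone and hypertrophic signaling. RGS2 (ENSSSCG00000037241, chromosome 10 from 936789 to 940098, minus strand, build susScr11) was at 4.19, 6.38 and 5.53 FPKM in sham replicates 1 to 3 and at 3.24, 6.74 and 4.96 FPKM in DAC replicates 4 to 6. Both the lowest and the highest value were in DAC samples, and the sham range lay within the DAC range. The log2 fold change of RGS2 was -0.12 (standard error 0.24, 95% confidence interval -0.68 to 0.44, limma P = 0.632, adjusted P = 0.903, exact permutation P = 0.70). Its sign rested on a single library: without DAC replicate 4 the log2 fold change was 0.11.

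RGS3, which acts on both Gi and Gq, had the second smallest P among the tested RGS genes. RGS3 (ENSSSCG00000005480, chromosome 1 from 254067492 to 254211805, plus strand) was at 2.59, 3.88 and 3.87 FPKM in the sham samples and at 3.90, 3.33 and 4.86 FPKM in the DAC samples. DAC replicates 4 and 6 were above all sham samples, and DAC replicate 5 was below sham replicates 2 and 3. RGS3 had a log2 fold change of 0.18 (95% confidence interval -0.23 to 0.59, limma P = 0.331, adjusted P = 0.783, exact permutation P = 0.40). Leaving out sham replicate 1 brought this to 0.033, and leaving out DAC replicate 6 to 0.065.

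RGS4, another brake on Gi and Gq signals, had the smallest P and the smallest spread among sham samples. RGS4 (ENSSSCG00000006335, chromosome 4 from 87381386 to 87390467, minus strand) was at 1.01, 1.02 and 1.10 FPKM in the sham samples and at 1.40, 1.05 and 1.37 FPKM in the DAC samples. As for RGS3, DAC replicates 4 and 6 stood above the sham samples while DAC replicate 5 lay among them. The log2 fold change of RGS4 was 0.15 (standard error 0.12, 95% confidence interval -0.13 to 0.42, limma P = 0.242, adjusted P = 0.729, exact permutation P = 0.20). It stayed positive when any of the 6 samples was left out, between 0.11 and 0.22.

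RGS16, an R4 protein whose transcription is inducible in many cell types, was at 1.21, 1.71 and 0.779 FPKM in the sham samples and at 2.46, 1.03 and 1.25 FPKM in the DAC samples. DAC replicate 4 was the highest of the 6, and DAC replicates 5 and 6 lay inside the sham range. The log2 fold change of RGS16 was 0.19 (95% confidence interval -0.38 to 0.76, limma P = 0.464, adjusted P = 0.847, exact permutation P = 0.60), and it was -0.045 without DAC replicate 4. The annotated span of RGS16 (ENSSSCG00000015550, chromosome 9 from 123913172 to 123956800, minus strand) shares 3511 bases with RGS8 on the same strand. How fragments in that stretch were assigned is not given in the sources used here, so the values of this pair are uncertain.

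RGS18, known from platelets and their precursors, stayed under the filter in every sample. RGS18 (ENSSSCG00000033945, chromosome 10 from 1520872 to 1539663, minus strand) was at 0.509, 0.794 and 0.523 FPKM in the sham samples and at 0.257, 0.583 and 0.776 FPKM in the DAC samples. The sham range lay almost wholly inside the DAC range, whose lowest value was in DAC replicate 4. An exact two-sided permutation test of RGS18 gave P = 0.80. Of 9 platelet markers, 3 had values (ITGA2B, GP9 and ITGB3), and their summed level was 7.59 to 8.88 FPKM in the sham samples and 8.33 to 9.69 FPKM in the DAC samples. Most of this sum was ITGA2B, at 5.64 to 7.74 FPKM over the samples, and GP9 was under the filter. The part of platelets in the RGS18 values was not tested.

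The R12 members RGS12 and RGS14 combine the RGS domain with a GoLoco motif that binds inactive Gi subunits. RGS12 (ENSSSCG00000008698, chromosome 8 from 1963313 to 2076963, plus strand) was at 3.78, 3.23 and 2.30 FPKM in the sham samples and at 2.18, 3.00 and 4.42 FPKM in the DAC samples. The DAC range enclosed the sham range, and the log2 fold change was 0.015 (95% confidence interval -0.51 to 0.54, limma P = 0.949, adjusted P = 0.989, exact permutation P = 1). The sign of RGS12 was negative without sham replicate 3 (-0.13) and without DAC replicate 6 (-0.19).

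RGS14 (ENSSSCG00000014039, chromosome 2 from 80574411 to 80590003, minus strand) was at 0.476, 0.589 and 0.515 FPKM in the sham samples and at 1.04, 1.10 and 0.554 FPKM in the DAC samples. DAC replicates 4 and 5 were above the sham samples and DAC replicate 6 lay among them. RGS14 had at least 1 FPKM in only these DAC samples, so it was not among the genes tested. Its difference in mean log2(FPKM + 1) was 0.30, with P = 0.20 by an exact two-sided permutation test. With the filter removed, limma gave a 95% confidence interval of -0.040 to 0.64 and an adjusted P of 0.630.

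RGS19, a small RZ protein that acts on Gi, was at 2.86, 2.36 and 3.57 FPKM in the sham samples and at 1.91, 3.18 and 3.39 FPKM in the DAC samples. DAC replicate 4 was the lowest of all, and the other DAC samples lay inside the sham range. The log2 fold change of RGS19 (ENSSSCG00000034841, chromosome 17 from 62889210 to 62895556, minus strand) was -0.049 (95% confidence interval -0.51 to 0.41, limma P = 0.807, adjusted P = 0.956, exact permutation P = 0.80). It was 0.14 without DAC replicate 4 and 0.065 without sham replicate 3.

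RGS6, the R7 member that in the heart speeds the closing of the muscarinic potassium channel, differed most between individual animals. RGS6 (ENSSSCG00000033093, chromosome 7 from 95393959 to 95930034, plus strand) was at 0.422, 0.750 and 0.726 FPKM in the sham samples and at 8.94, 0.796 and 2.65 FPKM in DAC replicates 4, 5 and 6. DAC replicate 4 was 14.1 times and DAC replicate 6 was 4.19 times the sham mean, whereas DAC replicate 5 was 1.26 times the sham mean and 6.07% above the highest sham sample. Within the DAC group the highest value was 11.2 times the lowest. The difference in mean log2(FPKM + 1) was 1.31 with all samples, 0.66 without DAC replicate 4, and 0.14 for DAC replicate 5 alone against the sham samples.

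RGS6 passed 1 FPKM in only 2 samples and was therefore outside the genes tested. With the filter removed, limma gave P = 0.0468 and a 95% confidence interval of 0.024 to 2.59 (adjusted P = 0.620, exact permutation P = 0.10, the smallest that the design allows). RGS6 is annotated over a long stretch of the genome, and no other gene of the table overlapped it.

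DAC replicates 4 and 6, the libraries with the most RGS6, also had the highest values of the atrial markers MYL4 and SLN. Neither marker was called (limma P = 0.193 for MYL4 and 0.0743 for SLN, exact permutation P = 0.40 and 0.20). Of 4 atrial markers, MYL4 and SLN had values, and NPPA and MYL7 were not analysed here. MYL4, the atrial essential light chain, was at 2.03, 3.79 and 1.08 FPKM in the sham samples and at 9.22, 0.780 and 17.6 FPKM in DAC replicates 4, 5 and 6. SLN, the atrial inhibitor of the calcium pump, was at 0.278, 1.01 and 0.403 FPKM in the sham samples and at 1.44, 0.932 and 9.83 FPKM in the DAC samples. The SLN value of DAC replicate 4 was thus low and not far above that of sham replicate 2. DAC replicates 4 and 6 were thus the highest of the 6 for RGS6, MYL4 and SLN, but in a different order, with RGS6 higher in DAC replicate 4 and the markers higher in DAC replicate 6. The part of atrial tissue or of an atrial program in the RGS6 values was not tested.

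R7 proteins are stable only when bound to the G-protein beta-5 subunit, encoded by GNB5, and RGS7BP anchors them to the membrane. GNB5, described for this role after its values were seen, was at 13.5, 10.9 and 14.6 FPKM in the sham samples and at 10.01, 4.63 and 17.3 FPKM in the DAC samples. RGS7BP was at 8.20, 7.38 and 7.11 FPKM in the sham samples and at 7.65, 5.60 and 9.14 FPKM in the DAC samples. Neither was highest in DAC replicate 4, where RGS6 was highest, and both were lowest in DAC replicate 5. GNB5 had a log2 fold change of -0.42 (95% confidence interval -1.33 to 0.50, limma P = 0.316, exact permutation P = 0.60), which was -0.82 and called without DAC replicate 6 and 0.025 without DAC replicate 5. For RGS7BP it was -0.038 (95% confidence interval -0.43 to 0.36, limma P = 0.829, exact permutation P = 0.90).

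**Figure D2:**
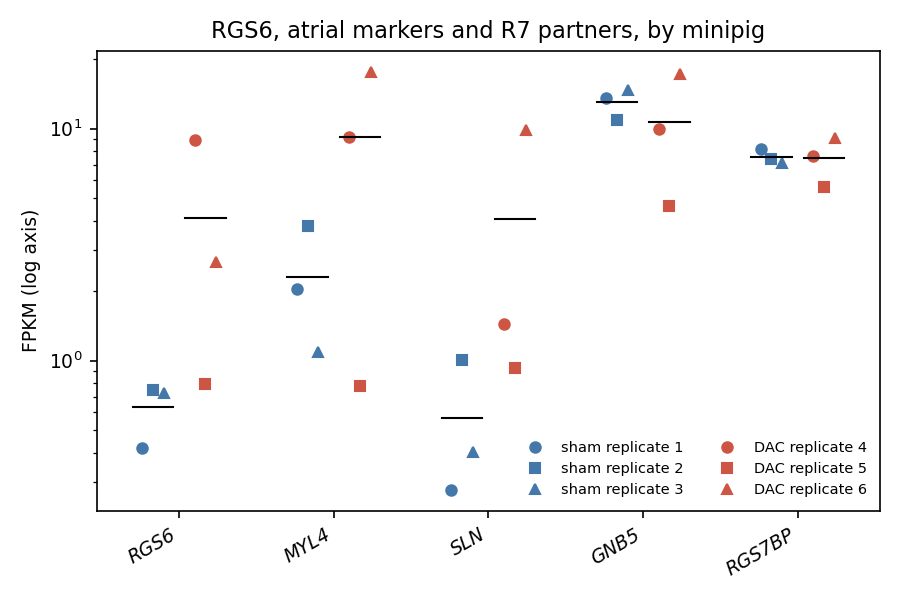
FPKM (log axis) of RGS6, the atrial markers MYL4 and SLN, and the partners of R7 proteins GNB5 and RGS7BP in each sham (blue) and DAC (red) minipig, with bars at the group means. DAC replicates 4 and 6 are the highest for RGS6, MYL4 and SLN, while GNB5 and RGS7BP are lowest in DAC replicate 5.

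Together the 9 RGS genes summed to 17.1, 20.7 and 18.9 FPKM in the sham samples and to 25.3, 20.8 and 24.2 FPKM in the DAC samples. Without RGS6 the sums were 16.6, 20.0 and 18.2 FPKM in the sham samples and 16.4, 20.0 and 21.6 FPKM in the DAC samples, so the groups overlapped once RGS6 was set aside. Most RGS transcripts of the tissue came from another gene of the family, RGS5, a marker of pericytes and arterial smooth muscle. RGS5 made up 56.6% to 61.0% of the summed FPKM of 14 RGS genes in the sham samples and 56.8% to 62.4% in the DAC samples. Its level was 51.0 ± 3.57 FPKM in sham and 52.4 ± 6.65 FPKM in DAC minipigs (SD, n = 3 each), a log2 fold change of 0.034 (95% confidence interval -0.26 to 0.33, limma P = 0.797, exact permutation P = 0.80). The 9 RGS genes held 20.0%, 24.1% and 21.0% of that sum in the sham samples and 26.7%, 26.4% and 26.9% in the DAC samples, and these shares did not overlap. With RGS6 left out of both sums the shares were 19.6%, 23.4% and 20.3% in the sham samples and 19.1%, 25.7% and 24.7% in the DAC samples. The groups then overlapped through DAC replicate 4 alone. DAC replicate 5 had the smallest sum of the 14 genes, 78.8 FPKM, and RGS6 at 0.796 FPKM. The shares were computed after the values were seen and were not tested. The 10 markers of smooth muscle and pericytes summed to 154 to 184 FPKM in the sham samples and 179 to 197 FPKM in the DAC samples. CNN1 was called higher (log2 fold change 0.60, adjusted P = 0.553) and 0 were called lower, beside 3.25% and 5.27% of all genes tested. By their means 8 of the 10 were higher and 2 lower in the DAC group, and their part in the RGS5 values was not tested.

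**Figure D3:**
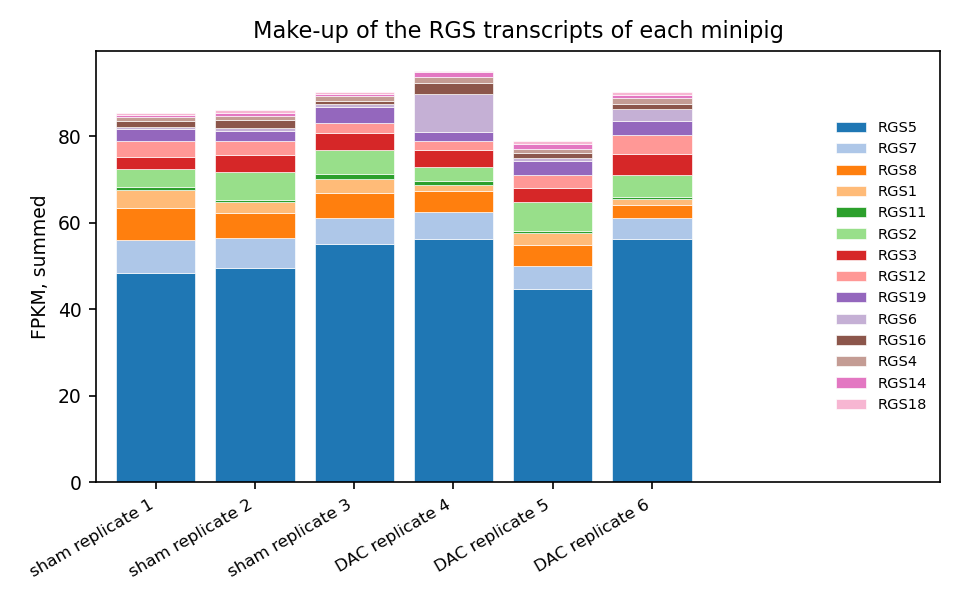
Stacked bars of the FPKM of 14 RGS genes in each minipig, 1 bar per animal. RGS5 fills 56.6% to 62.4% of every bar, and the RGS6 segment is wide only in DAC replicate 4 and, less so, DAC replicate 6.

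Of 13 further genes of the family and its R7 anchors, 7 had values, among them the anchors RGS7BP and RGS9BP, and 6 were tested. Of the 6 tested, 2, RGS1 and RGS8, were called lower in the DAC group and 0 higher. Over all genes tested, 5.27% were called lower and 3.25% higher. RGS1, an R4 gene best known from lymphocytes, was at 4.01, 2.54 and 3.32 FPKM in the sham samples and at 1.36, 2.82 and 1.26 FPKM in the DAC samples, with DAC replicate 5 above sham replicate 2. RGS1 had a log2 fold change of -0.64 (95% confidence interval -1.19 to -0.092, limma P = 0.0278, adjusted P = 0.553, exact permutation P = 0.20). The call of RGS1 was lost without sham replicate 1, sham replicate 3, DAC replicate 4 or DAC replicate 6, where the log2 fold change was -0.50 to -0.63, and also where the variance was taken from each gene alone, on log2 or linear FPKM. Of 13 leukocyte markers, 11 had values, and they summed to 84.4 to 98.6 FPKM in the sham samples and to 72.8 to 114 FPKM in the DAC samples. Of the 10 tested, the macrophage gene CD163 was called lower (log2 fold change -0.43, adjusted P = 0.508), without overlap of the groups, and 0 were called higher. By their means 4 of the 10 were higher and 6 lower in the DAC group, and the part of leukocytes in the RGS1 values was not tested.

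RGS8, an R4 gene known from neurons, was at 7.33, 5.61 and 5.86 FPKM in the sham samples and at 4.98, 4.87 and 2.94 FPKM in the DAC samples, without overlap of the groups. RGS8 had a log2 fold change of -0.48 (95% confidence interval -0.93 to -0.037, limma P = 0.0373, adjusted P = 0.581, exact permutation P = 0.10). The call of RGS8 was lost without sham replicate 1, sham replicate 3 or DAC replicate 6, where the log2 fold change was -0.38, -0.52 and -0.29, under each of the 3 other scalings of the samples, and with the variance from each gene alone. Besides RGS16, RGS8 shares 9187 bases of its span with another gene on the same strand. RGS7, an R7 gene, was at 7.78, 6.90 and 5.92 FPKM in the sham samples and 6.04, 5.12 and 4.90 FPKM in the DAC samples, with a log2 fold change of -0.30 (limma P = 0.0524, exact permutation P = 0.20), and it was called without sham replicate 3 (-0.39) or DAC replicate 4 (-0.38). RGS9BP, a membrane anchor for R7 proteins, was at 1.68 to 5.19 FPKM in the sham samples and 1.41 to 2.11 FPKM in the DAC samples (log2 fold change -0.52, limma P = 0.124, exact permutation P = 0.20), and its log2 fold change was -0.17 without sham replicate 1 and -0.78, and called, without sham replicate 2. RGS11 was at or under 1.18 FPKM in every sample and was not tested. The median log2 fold change over the 6 tested genes was -0.39.

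**Figure D4:**
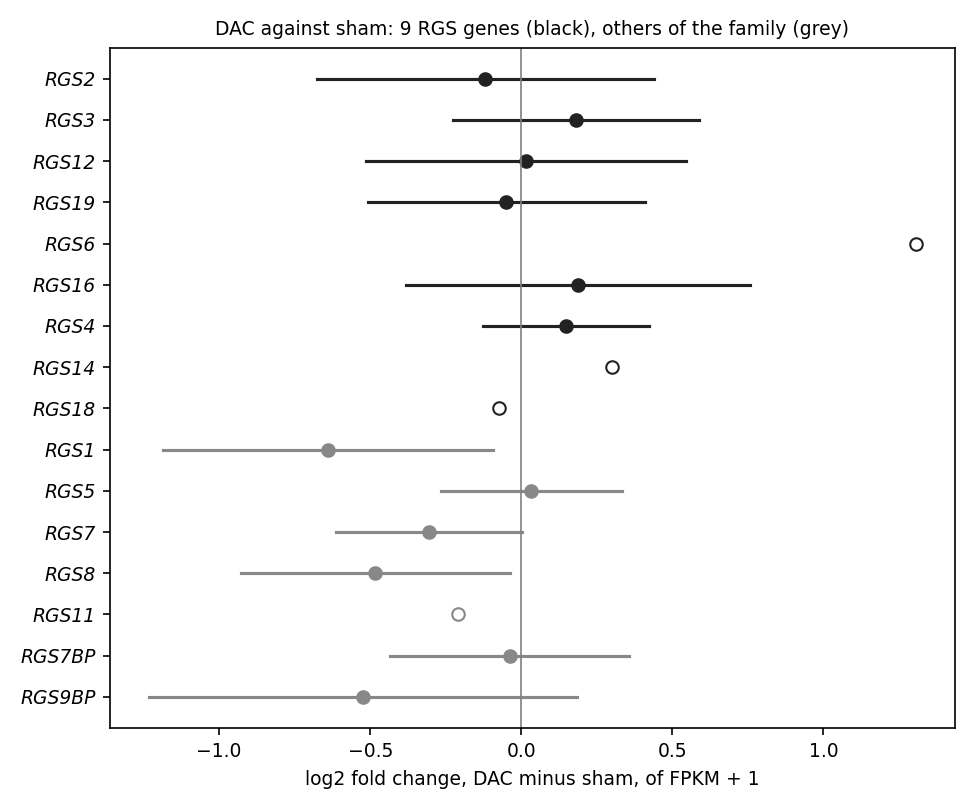
Log2 fold change of FPKM + 1, DAC minus sham, for the 9 RGS genes (black) and, in grey, the other genes of the family and the R7 anchors RGS7BP and RGS9BP. Lines are 95% confidence intervals from limma and open points are genes under the filter, shown without an interval. The intervals of all 6 tested RGS genes cross 0, and those of RGS1 and RGS8 lie below 0.

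Several RGS genes are neighbours in the pig genome. RGS2 and RGS18 lie on chromosome 10 with RGS1 between them, 207 kb from RGS2 and 369 kb from RGS18. RGS4 lies 37.1 kb from RGS5 on chromosome 4, and RGS16 overlaps RGS8 on chromosome 9. On chromosome 10, RGS1 was called lower and the log2 fold changes of RGS2 and RGS18 were -0.12 and -0.074, neither called. On chromosome 9, RGS8 was called lower while RGS16 had a log2 fold change of 0.19, not called. Differences between neighbours were not tested. The positions of all 16 genes with values from the RGS lists, the R7 anchors RGS7BP and RGS9BP included, overlapped those of RefSeq on Sscrofa11.1.

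The genes whose values followed RGS4 and RGS3 most closely over the 6 samples were found by Pearson's correlation of log2(FPKM + 1). For RGS4 these were SZRD1, CRBN, CTTN, GPM6B and C3orf38, with r from 0.988 to 0.992. For RGS3 they were ARPC5, ABHD11, PCDH19, CSF1 and ANXA1, with r from 0.981 to 0.991. The points are the same 6 libraries, and of the 11028 genes compared 125 had r above 0.90 with RGS4 and likewise 125 with RGS3.

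The G-protein pathway was followed through 5 lists of receptors, G-protein subunits, effectors and other regulators. Of 120 genes, 95 had values and 80 were tested, and 8 were called lower in the DAC group (10%) and 6 higher (7.5%), beside 5.27% and 3.25% of all genes tested. Leaving out 1 sample moved the number called lower to between 6 and 11 and the number called higher to between 1 and 6. None of the 9 tested alpha subunit genes was called. GNAQ, the alpha subunit of Gq, was at 8.49 ± 1.03 FPKM in sham and 10.3 ± 1.07 FPKM in DAC minipigs (SD, n = 3 each; limma P = 0.0792, exact permutation P = 0.20). The related GNA11 was at 15.1 ± 1.62 and 12.5 ± 0.192 FPKM (limma P = 0.0563, exact permutation P = 0.10), and the alpha subunit gene GNA12 at 9.89 ± 1.41 and 7.84 ± 0.875 FPKM (limma P = 0.0667, exact permutation P = 0.20). All 3 passed the threshold without sham replicate 2, GNAQ also without DAC replicate 5 and GNA12 also without DAC replicate 4.

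Among the receptors, ADRB1, P2RY2 and S1PR1 were called lower. ADRB1, the main beta receptor of cardiomyocytes, was at 34.1, 32.0 and 27.0 FPKM in the sham samples and at 20.3, 18.8 and 24.1 FPKM in the DAC samples, without overlap. ADRB1 had a log2 fold change of -0.54 (95% confidence interval -0.86 to -0.22, limma P = 0.00553, adjusted P = 0.482, exact permutation P = 0.10) and was called in all 15 alternatives. The nucleotide receptor P2RY2 had a log2 fold change of -0.42 and the sphingosine phosphate receptor S1PR1 of -0.61, and both lost the call without sham replicate 3. P2RY2 also lost it without sham replicate 2 or DAC replicate 6, and S1PR1 without sham replicate 2 or DAC replicate 4 or 5. S1PR1 is abundant in endothelial cells, and of 10 endothelial markers CLDN5, VWF and ROBO4 were also called lower and KDR higher. The endothelial markers summed to 171 to 242 FPKM in the sham samples and 143 to 216 FPKM in the DAC samples, and their part in the S1PR1 values was not tested. Called higher were ADRA1A, a Gq-coupled alpha-1 receptor, with a log2 fold change of 0.57 (lost without sham replicate 3 or DAC replicate 4), and the prostaglandin receptor PTGER2, with 0.37 (lost without sham replicate 1, DAC replicate 4, 5 or 6).

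Among effectors, ADCY9, an adenylyl cyclase, was at 7.09, 5.09 and 6.498 FPKM in the sham samples and at 3.90, 4.18 and 4.27 FPKM in the DAC samples, without overlap. ADCY9 had a log2 fold change of -0.49 (95% confidence interval -0.80 to -0.18, limma P = 0.00727, adjusted P = 0.50, exact permutation P = 0.10) and was also called in all 15 alternatives. KCNJ5, a subunit of the muscarinic potassium channel on which RGS4 and RGS6 act, was at 85.1, 42.7 and 81.0 FPKM in the sham samples and at 25.1, 44.9 and 29.9 FPKM in the DAC samples. KCNJ5 had a log2 fold change of -1.02 (limma P = 0.0129, adjusted P = 0.509, exact permutation P = 0.20), and DAC replicate 5, which had the lowest RGS6 of the DAC samples, lay above sham replicate 2. KCNJ3, the partner subunit, was at 19.9 to 26.5 FPKM in the sham samples and 21.7 to 24.0 FPKM in the DAC samples. ITPR2, a calcium release channel downstream of Gq, had a log2 fold change of 0.23 (limma P = 0.0594, exact permutation P = 0.10). It was called higher under each of the 3 other scalings, with sample weights and with the variance from each gene alone. ITPR2 was not called in any fit with 1 sample left out (limma P from 0.0539 to 0.167), nor with the other filters or pseudocount.

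Among beta and gamma subunits, GNB3 was called lower with a log2 fold change of -1.04 (adjusted P = 0.512) and GNG7 with -0.46 (adjusted P = 0.571), and GNG12 was called higher with 0.36 (adjusted P = 0.585). GNB3 and KCNJ5 were called whichever sample was left out. The exact permutation P was 0.20 for GNB3, KCNJ5, S1PR1 and GRK5, whose groups overlapped. For the other called genes of the pathway lists it was 0.10, the smallest possible. Where the variance was taken from each gene alone, on log2 or linear FPKM, the calls of GNB3, KCNJ5, GNG7, GNG12, S1PR1, ADRA1A, GRK5 and AXIN2 were lost, and that of PTGER2 on log2 FPKM. GNG7 lost the call without sham replicate 1, sham replicate 3 or DAC replicate 5, and GNG12 without sham replicate 1 or 2 or DAC replicate 4 or 6. Of the other regulators, AXIN1, a Wnt pathway scaffold with an RGS domain, was called lower at -0.33 (lost without sham replicate 1 or DAC replicate 5). The related AXIN2, the receptor kinase GRK5 and the chaperone-like PDCL3 were called higher at 0.52, 0.47 and 0.26. Among the 6 fits with 1 sample left out, AXIN2 was called only without sham replicate 2, PDCL3 only without sham replicate 3 and GRK5 only without sham replicate 1 or DAC replicate 4.

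**Figure D5:**
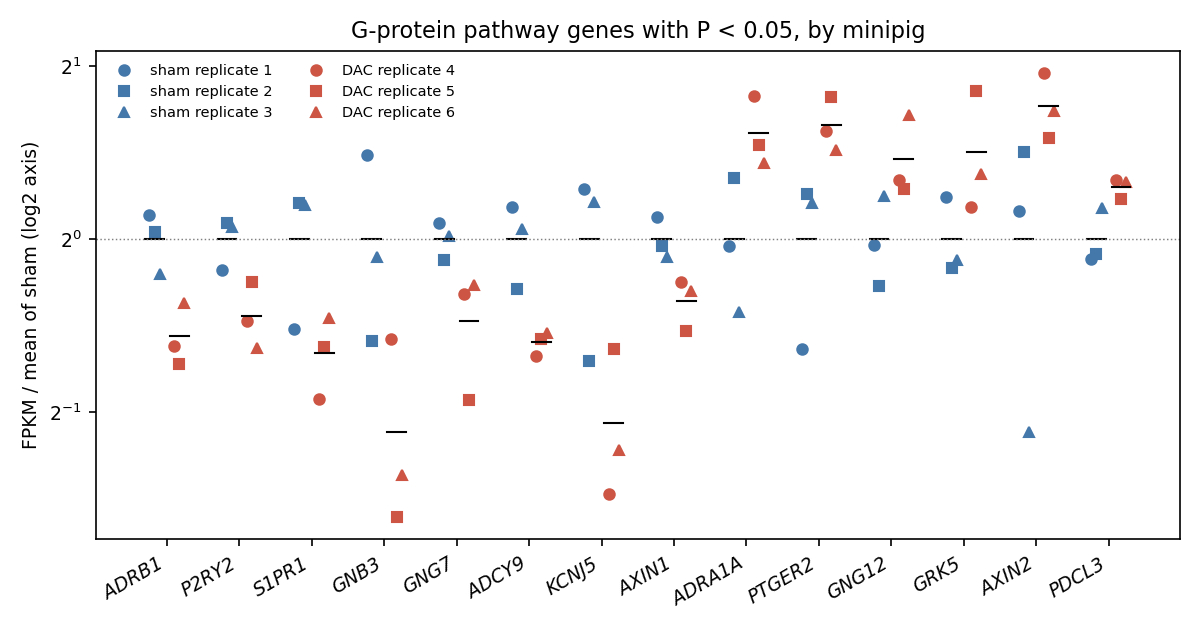
FPKM of the 14 called genes of the G-protein pathway lists, each divided by its sham mean (log2 axis), in every sham (blue) and DAC (red) minipig, with bars at the group means. ADRB1 and ADCY9 are lower in all 3 DAC samples than in any sham sample, while GNB3, KCNJ5, S1PR1 and GRK5 overlap between the groups.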

How the data were processed

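The authors deposited 1 table of FPKM per gene with a column for each of 6 minipigs, made from paired-end Illumina HiSeq reads of NEBNext Ultra libraries. The submitters' processing notes name HISAT2 and the build susScr11, while the program that made the values, the annotation and the handling of shared or strand-specific reads are not given in the sources used here. Genes had at least 0.50 FPKM in their highest sample. The table gives no read counts: over 6583 or more low genes per pair of samples, at most 3 shared a ratio, so no steps of whole reads were seen, the depth is unknown, and the error of a value is the spread between minipigs. Of 2440 genes without a symbol, 520 received it from a table of gene identifiers.

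Log2(FPKM + 1) was compared with limma 3.58.1 in R 4.3.3, with a trend of the variance, two-sided, for genes that reached 1 FPKM in 3 or more of 6 samples. Single genes under the filter were compared by exact permutation. The fit was tested on simulated data. Figures used Python 3.11.15 and matplotlib 3.10.9. The RGS members and the gene lists were chosen with earlier results of these data known. Named were all members and, of the list of 13 further RGS genes and R7 anchors, all with values. Of each pathway list the 3 genes with the smallest P were named. For the members RGS4 and RGS3, which had the smallest P, the 5 genes of most similar values were named. The RGS-like gene RGSL1, 5.52 kb from RGS16 on chromosome 9, was in no list and enters no count of the family. Other called genes of the lists and GNB5 were added after their values were seen. Markers of cardiomyocytes, atrial tissue, smooth muscle and pericytes, endothelium, leukocytes and platelets are given as levels, and for some lists also as counts of calls. The 10 fibroblast markers summed to 567 to 648 FPKM in sham and 769 to 903 FPKM in DAC samples. Of them, 4 matrix genes, COL1A1, COL1A2, COL3A1 and LUM, were called higher and 0 lower, beside 3.25% and 5.27% of all genes tested. By their means 7 of the 10 were higher and 3 lower in the DAC group. The 3 red blood cell markers with values summed to 11.4 to 39.3 FPKM in sham and 5.96 to 38.5 FPKM in DAC samples. No sequence of these genes was used here. An item of the receptor list is not reported here and enters no count of that list. The alternatives were other filters, scalings, pseudocounts, variance models, sample weights and each sample left out.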

Additional observations from a re-analysis of the deposited data

How the results depend on the processing

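The 9 listed RGS genes (RGS2, RGS3, RGS4, RGS6, RGS12, RGS14, RGS16, RGS18 and RGS19) had 0 calls in either direction in all alternatives, except that 1, RGS6, was called higher with no filter on FPKM. RGS6, RGS14 and RGS18 were tested only in that alternative, so they could not be called in the others. With a minimum of 5 FPKM, RGS2 alone was tested. The median log2 fold change of the 9 genes ranged from 0.065 to 0.22 when single samples were removed, and from 0.12 to 0.23 in the other alternatives. With 1 sample left out, the log2 fold change crossed 0 for RGS2 (-0.33 to 0.11), RGS12 (-0.19 to 0.20), RGS16 (-0.045 to 0.34), RGS18 (-0.18 to 0.065), RGS19 (-0.16 to 0.14), RGS5 (-0.020 to 0.14), RGS7BP (-0.18 to 0.13), GNB5 (-0.82 to 0.025) and ARPC5 (-0.0057 to 0.22). RGS7BP was also above 0 with mitochondrially encoded genes left out and the rest rescaled (0.0013) and with sample weights (0.0075). The causes were not tested.

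For the pathway lists, where the alternatives were added after seeing the data, 5 genes were called lower on linear FPKM. The number called higher was 2 with a minimum of 5 FPKM, 10 with mitochondrially encoded genes left out and 3 when each gene's variance came from that gene alone, and 1 to 6 with 1 sample left out. Over all genes, 581 were called lower and 358 higher, against 407 and 500 with mitochondrially encoded genes left out, 414 and 165 with a minimum of 5 FPKM, and 359 and 241 without sham replicate 1. Genes under about 1 FPKM, RGS6, RGS14 and RGS18 among them, rest on an unknown number of reads.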
